A study of Raphidocelis subcapitata with 72 samples.

Results

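Magnetite cultures of the green alga Raphidocelis subcapitata were compared at 4 h and 1 h after the particles were added. The comparison used 5 of the 17 distinct libraries of the series, which were replicates 1 and 3 at 1 h and replicates 1, 2 and 3 at 4 h. The table holds 12181 genes. Of these, 11841 passed the low-count filter and were tested, and the 340 others did not pass it. Members were chosen by the labels alone. The labels name 3 replicates at 1 h, but the 4 columns of replicate 2 at 1 h hold, over all 12181 genes, the values of 1 lane column of replicate 1, so they added no sample and were left out.

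The study exposed this freshwater alga (strain ATCC 22662) to zero-valent iron nanoparticles (nZVI) at 100 mg/L, to magnetite nanoparticles (nFe3O4) at the same dose, or to no particles, and sampled RNA at 1 h and 4 h. All cultures shared the same start: mid-log growth in Sueoka's high salt medium, bubbled with air and CO2 under constant white light. Messenger RNA was captured by its poly(A) tail and sequenced from both ends with a strand-specific kit. The 4 columns per replicate were read as sequencing lanes of 1 library and summed, and since no label says that replicate cultures had separate inocula, p-values cover only the spread among these libraries, which may be technical. Each control and nZVI library of the authors' rlog table correlated best, over the 49 genes in both, with a library of the other heading in the count table, while each nFe3O4 library correlated best with an nFe3O4 library of the same hour. The control and nZVI headings thus differ between these 2 tables, so those cultures are called labelled control and labelled nZVI here, after the count table, and which table has them right was not tested.

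Magnetite is an iron oxide that holds both ferrous and ferric iron and dissolves slowly in water. Algae need iron for the photosystems, for respiration and for nitrate reduction, and they keep its uptake under tight control because free iron promotes the formation of reactive oxygen species. A difference between 4 h and 1 h is a change over time in the presence of particles, and not by itself an effect of them. Genes appear in the files by locus identifier only, with no name or product, so no gene function is given below.

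By correlation and by the share of genes at least 2-fold apart, though not by the median difference, the library numbered 3 was the farthest of the 3 at 4 h. Across 6385 genes whose mean log2 CPM was 3 or more (CPM is a count scaled to library size, here with TMM factors), replicates 1 and 2 at 4 h had a Pearson r of 0.989, and only 0.282% of these genes were at least 2-fold apart between them. Replicate 3 at 4 h had r of 0.967 with replicate 1 and 0.956 with replicate 2, with 4.40% and 4.20% of genes at least 2-fold apart. The median absolute log2 difference gave another order at 4 h, with 0.156 between replicates 1 and 3, 0.183 between replicates 1 and 2 and 0.206 between replicates 2 and 3. The 2 libraries at 1 h, replicates 1 and 3, had r of 0.971, 4.62% of genes at least 2-fold apart and a median absolute difference of 0.137, and from these 2 alone neither can be called the one apart. In the other 4 groups of the series the 12 pairs had r of 0.974 to 0.994, with 0.0470% to 3.85% of genes at least 2-fold apart and median absolute differences of 0.117 to 0.218. By r, replicate 3 at 1 h was closer to replicate 3 at 4 h (r of 0.964) than to replicates 1 and 2 at 4 h (0.934 and 0.933). The 5 totals ran from 30387296 to 43364641 counts, and replicate 3 had 38347711 at 1 h and 35993880 at 4 h. The 10 most counted genes of each library held 20.3% and 21.9% of its counts at 1 h and 23.5%, 24.5% and 25.1% at 4 h.

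Between 1 h and 4 h, 1482 of the 11841 genes changed in nFe3O4 cultures (12.5%; edgeR's quasi-likelihood test, Benjamini-Hochberg adjusted p below 0.05). Of these, 631 rose (5.33% of genes tested) and 851 fell (7.19%). Most changes were small: the median log2 fold change was 0.77 among genes that rose and -0.73 among genes that fell, against 0.02 over all genes tested, with a median standard error of 0.20. At least a 2-fold change was seen in 199 genes that rose and 242 that fell. At least a 4-fold change was seen in 37 that rose and 13 that fell. The split between directions depends on the scaling of the libraries: without TMM factors the log2 changes moved down, the median over all genes by 0.13 (shift of -0.13), and 400 genes rose while 1472 fell. The share of calls that were rises was 42.6% with the factors and 21.4% without them.

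Genes that rose carried much of the messenger RNA. Together the 631 genes took 18.3% and 19.7% of all counts at 1 h (replicates 1 and 3) and 28.9%, 29.8% and 30.7% at 4 h (replicates 1, 2 and 3). The 851 genes that fell took 9.46% and 9.47% at 1 h and 6.04%, 5.99% and 6.28% at 4 h. The lists were picked on these libraries, so the shares describe their size and are no separate evidence of direction. Among the 10 genes with the highest mean level, 5 rose and 1 fell, against 5.33% and 7.19% of all genes, and the median log2 change of the 10 was 0.36 against 0.02 over all genes. Their joint share of counts went from 19.9% and 21.4% at 1 h to 23.4%, 24.4% and 25.1% at 4 h. Among the 100 genes with the highest mean level, 21 rose, 4 fell and 55 had a positive log2 change, and their median was 0.02.

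Calls were more frequent among abundant genes, where the error was smaller. With the genes in 4 equal bins by mean level, 5.13% were called in the lowest bin (0.146 to 3.33 CPM), with a median standard error of 0.40. In the next 2 bins 10.6% and 12.7% were called with 0.22 and 0.16, and in the highest bin (26.5 CPM and above) 21.7% with 0.12. A change in a weakly expressed gene was therefore less often detectable at this depth. Without any test, the libraries of the hours did not overlap in 4771 genes (40.3%), of which 2157 were higher and 2614 lower at 4 h. Of the 1482 genes called, 1474 had hours that did not overlap and 8 had hours that did. With 2 libraries against 3, an exact rank-sum test of 1 gene cannot go below a two-sided p of 0.2. The edgeR tests thus rest on the spread shared across genes and groups.

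Among genes that changed and had a mean log2 CPM of 3 or more, the rises with the largest fold were those of RSUB_01551 and RSUB_01552, identifiers with consecutive numbers whose reads may be shared, so the pair is uncertain as 2 separate genes. RSUB_01551 had 30.5 and 5.49 CPM at 1 h (replicates 1 and 3) and 904, 304 and 103 CPM at 4 h (replicates 1, 2 and 3). RSUB_01552 had 23.1 and 4.60 CPM at 1 h and 682, 240 and 79.4 CPM at 4 h. In both genes every 4 h library lay above both 1 h libraries, and replicate 3 was the lowest at each hour. The log2 fold change was 4.61 (SE 1.10, n = 2 and 3, edgeR adjusted p = 0.0115) for RSUB_01551 and 4.60 (SE 1.09, adjusted p = 0.0113) for RSUB_01552. Read within each replicate, the log2 change of RSUB_01551 was 4.89 in replicate 1 (edgeR adjusted p = 0.0399) and 4.23 in replicate 3 (adjusted p = 0.0652), while the levels of the 2 replicates differed several-fold at both hours. Without replicate 3 at 1 h the values were 3.84 for RSUB_01551 and 3.85 for RSUB_01552, and both calls were lost. Without both libraries numbered 3 the values were 4.31 and 4.32, and both calls were kept. Each of these fits has 1 library at 1 h. The fit on the nFe3O4 libraries alone also ended both calls at nearly the same fold (4.60, edgeR adjusted p = 0.0953 and 4.59, adjusted p = 0.0888).

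RSUB_01551 also rose where no nFe3O4 was present. It went from 13.7, 2.38 and 1.71 CPM at 1 h to 118, 31.4 and 38.0 CPM at 4 h in labelled control cultures, a log2 change of 3.42 (SE 0.90, edgeR adjusted p = 0.0171). In labelled nZVI cultures it went from 31.3, 17.3 and 49.0 to 378, 318 and 375 CPM, a log2 change of 3.46 (SE 0.87, edgeR adjusted p = 0.0116). The 3 conditions did not overlap between their hours, and neither difference between the nFe3O4 change and another condition's change passed the test (1.19, SE 1.25, edgeR adjusted p = 0.744 against labelled control, and 1.15, SE 1.21, adjusted p = 0.832 against labelled nZVI).

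Under the same limit on mean level, the falls with the largest fold were those of RSUB_08848 and RSUB_04889. RSUB_08848 had 21.2 and 30.3 CPM at 1 h (replicates 1 and 3) and 3.59, 4.08 and 4.64 CPM at 4 h (replicates 1 to 3). Every 1 h library was several-fold above every 4 h library, and replicate 3 was the highest at each hour. The log2 fold change was -2.65 (SE 0.20, n = 2 and 3, edgeR adjusted p = 5.89e-06), with -2.56 within replicate 1 and -2.71 within replicate 3. RSUB_04889 had 19.8 and 29.6 CPM at 1 h and 6.14, 8.03 and 5.10 CPM at 4 h, again with no overlap. Its log2 fold change was -1.95 (SE 0.34, n = 2 and 3, edgeR adjusted p = 0.00126), and without both libraries numbered 3 it was -1.49 (adjusted p = 0.0557). RSUB_04889 fell in labelled control cultures too, from 15.1, 15.1 and 10.7 to 1.98, 0.739 and 1.76 CPM (log2 change -3.16, SE 0.35, edgeR adjusted p = 7.11e-05).

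**Figure D1:**
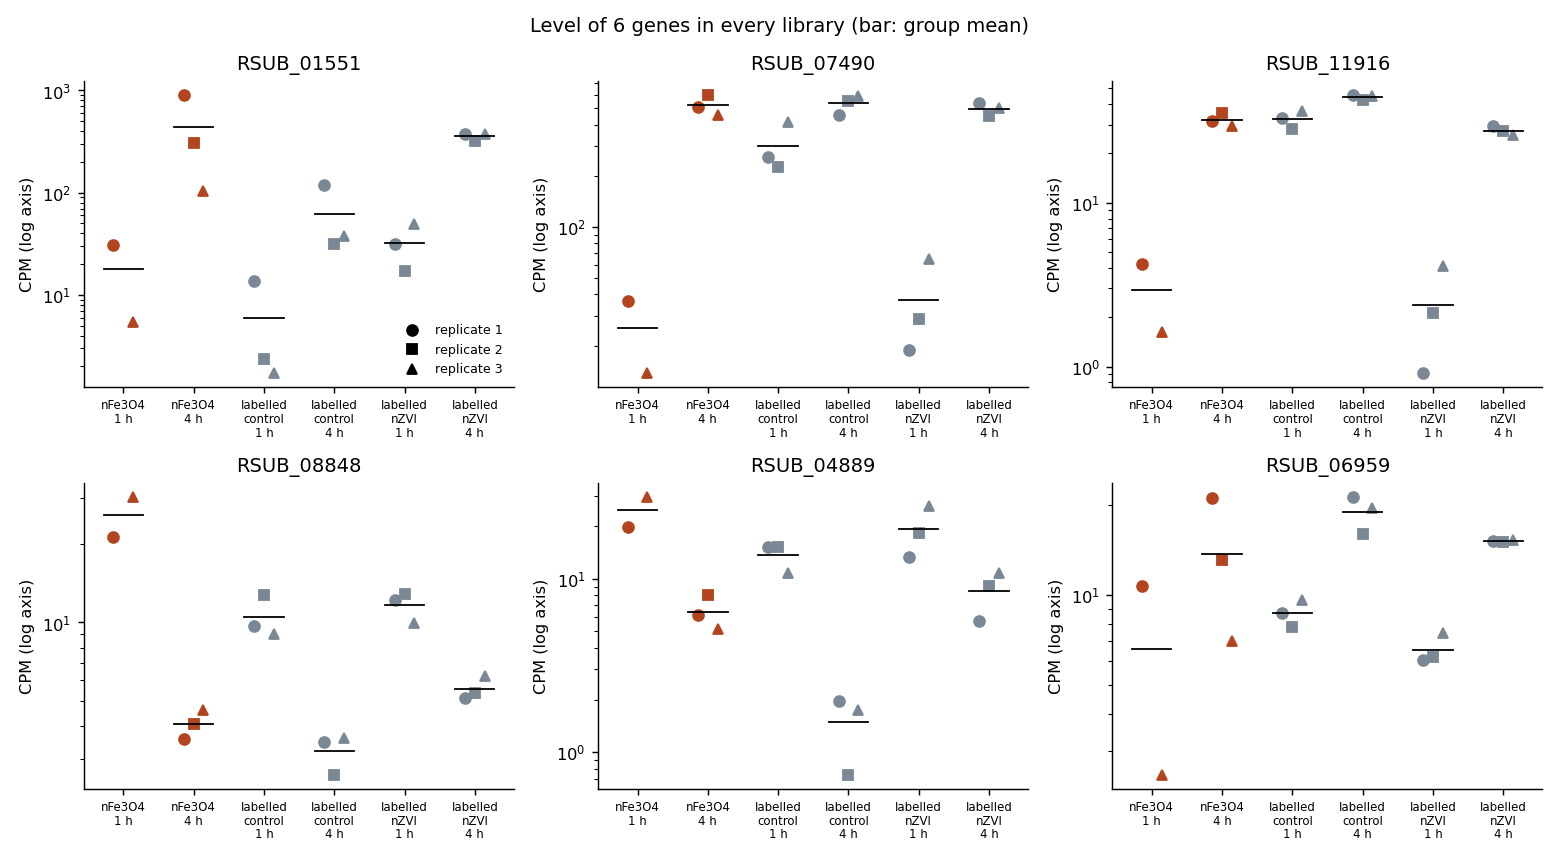
Level of 6 genes in every library, as CPM on TMM-scaled library sizes on a log axis, with the group mean as a bar, nFe3O4 libraries in red and the other cultures in grey. RSUB_01551 rose in all 3 conditions, RSUB_07490 and RSUB_11916 were low at 1 h in nFe3O4 and labelled nZVI cultures but not in labelled control cultures, RSUB_08848 and RSUB_04889 fell in all 3, and RSUB_06959 differed between the 2 nFe3O4 libraries at 1 h.

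Dependence on replicate 3 was tested directly, as the difference between the change over time in replicate 3 and that in replicate 1. No gene passed edgeR's quasi-likelihood test of this difference at an adjusted p below 0.05 (0% of 11841), and 179 genes had an unadjusted p below 0.05. DESeq2 called 1 gene, RSUB_11628. The test had low power, because it rests on 4 single libraries and its median standard error was 0.43 on the log2 scale, so the count of 0 does not show that the replicates changed alike.

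Genes called within 1 replicate nearly always had the same sign in the other. Within replicate 1, edgeR called 373 genes (3.15%; 178 higher, 195 lower at 4 h), and within replicate 3 it called 452 (3.82%; 271 higher, 181 lower), with single libraries assumed to vary like those of the other groups. These 2 changes share no library. Higher in both were 135 genes, which is 75.8% of those called in replicate 1 and 49.8% of those called in replicate 3. Lower in both were 95 genes, which is 48.7% and 52.5%, and none was called in opposite directions. Of the 373 genes called in replicate 1, 369 (98.9%) had the same sign in replicate 3, and of the 452 called in replicate 3, 449 (99.3%) had the same sign in replicate 1. Across the 6385 genes whose mean log2 CPM was 3 or more, 76.1% had the same sign in both, with a Pearson r of 0.80. Over all 11841 genes tested, 72.0% had the same sign, with r of 0.49, and 72.0% is the background of the 98.9% and 99.3% above. Both r values are across genes, which are not independent replicates. The assumption that single libraries vary like those of the other groups was not fully met. Same-hour nFe3O4 pairs with replicate 3 had r of 0.971, 0.967 and 0.956, below the 0.974 to 0.994 of the other groups. By the median absolute difference they lay within the range of those groups. The p-values of tests on single nFe3O4 libraries, here and elsewhere, may thus be too small.

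**Figure D2:**
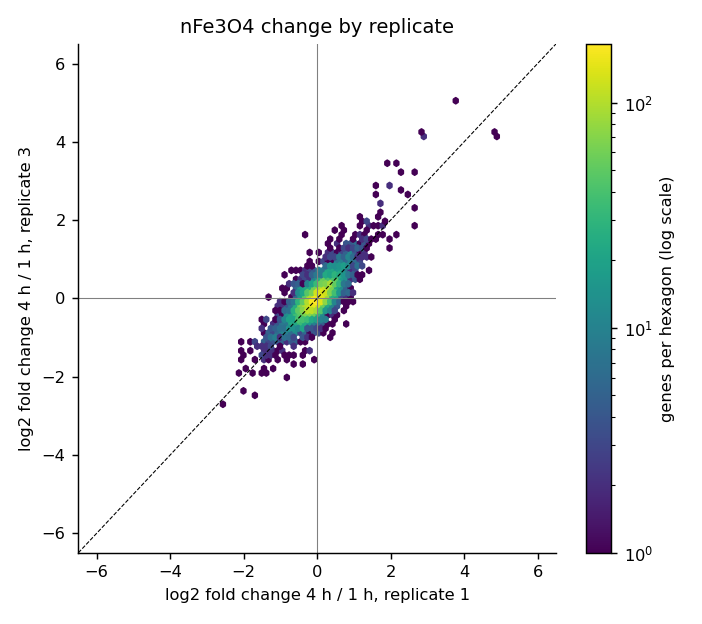
Log2 fold change of 4 h over 1 h within nFe3O4 replicate 1 (horizontal) and within replicate 3 (vertical) for 6385 genes whose mean log2 CPM was 3 or more, with colour giving the number of genes per hexagon on a log scale and a dashed line of equal change. The genes lie along the dashed line, and 76.1% of them fall in the quadrants where both changes have the same sign.

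The number of calls, by contrast, depended strongly on the replicate 3 library at 1 h. With it left out, 596 genes were called (286 higher, 310 lower), and 578 of these were among the 1482, 39.0% of them. With replicate 1 at 1 h left out instead, 1147 were called (608 higher, 539 lower), 895 of them among the 1482, or 60.4%. Leaving out replicate 1, 2 or 3 at 4 h gave 987, 1380 and 1303 calls, and leaving out both libraries numbered 3 gave 480. Leaving out replicate 1 at 4 h thus also moved the count by just over 1.5 times. Without replicate 3 at 1 h all 1482 genes kept their sign. These genes were chosen on the same libraries, and 1474 had hours that did not overlap, so the kept signs were largely fixed beforehand. In that fit their log2 fold changes moved by a median of 0.08, with 27 genes moving by over 1.5 times. Without replicate 1 at 1 h the median move was also 0.08, with 46 genes moving by over 1.5 times. In the fit without replicate 3 at 1 h the medians went from 0.77 to 0.76 for those that rose and from -0.73 to -0.70 for those that fell. The median standard error of the same genes went from 0.16 to 0.20. In the fit without replicate 1 at 1 h the medians were 0.80 and -0.77, and the median standard error was also 0.20.

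The 1482 genes thus fall into 4 sets by the 1 h library used. With either 1 h library alone as well as with both, 483 genes were called (236 higher, 247 lower). With both and with replicate 3 alone but not with replicate 1 alone, 412 were called (152 higher, 260 lower). The reverse held for 95 genes (39 higher, 56 lower). The remaining 492 (204 higher, 288 lower) were called with both 1 h libraries together and with neither one alone.

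Replicate 3 at 1 h sat farther from the 4 h level than replicate 1 more often than not. Among the 631 genes that rose it was below replicate 1 in 369 (58.5%), and among the 851 that fell it was below in 317 (37.3%), against 51.0% of all genes tested. The medians within replicates were nevertheless close. For genes that rose the median log2 change was 0.73 within replicate 1 and 0.84 within replicate 3, and for genes that fell it was -0.77 and -0.76. The same libraries chose these genes, so the values are a description.

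**Figure D3:**
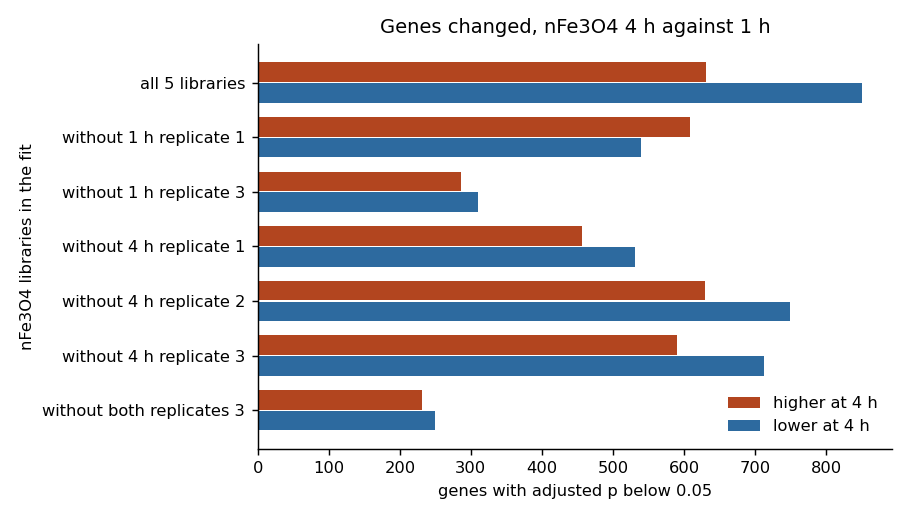
Number of genes higher (red) and lower (blue) at 4 h than at 1 h in nFe3O4 cultures at an edgeR adjusted p below 0.05, with all 5 libraries and with libraries left out. The bars run from 631 and 851 genes with all libraries to 286 and 310 without replicate 3 at 1 h, and to 231 and 249 without both libraries numbered 3.

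Only 2 genes differed between the 2 nFe3O4 libraries at 1 h at an edgeR adjusted p below 0.05 (0.0169% of genes tested), although 1115 had an unadjusted p below 0.05. Between replicates 3 and 1 at 4 h none was called and 1184 had an unadjusted p below 0.05. The first of the 2 genes, RSUB_06959, had 10.7 CPM in replicate 1 and 2.49 in replicate 3 at 1 h, and 21.1, 13.1 and 7.03 CPM at 4 h (replicates 1 to 3). Replicate 3 was the lowest at both hours, and the hours overlapped, since replicate 1 at 1 h exceeded replicate 3 at 4 h. The difference of replicate 3 from replicate 1 at 1 h was -2.11 on the log2 scale (SE 0.26, edgeR adjusted p = 0.00627). Its change over time was 1.06 (SE 0.45, edgeR adjusted p = 0.141) with the replicates averaged, yet 0.98 (adjusted p = 0.0378) within replicate 1 and 1.50 (adjusted p = 0.00519) within replicate 3.

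The other gene, RSUB_11628, lies below the level used for naming genes and is given after its values were seen. It had 29.2 CPM (1076 counts) in replicate 1 and 0.455 CPM (19 counts) in replicate 3 at 1 h, and 2.91, 3.94 and 1.14 CPM at 4 h. Replicate 1 at 1 h was the exception among all libraries, as labelled control and labelled nZVI libraries at 1 h had 0.961 to 4.85 CPM. It fell by 3.33 on the log2 scale within replicate 1 (edgeR adjusted p = 0.0109) and went the other way within replicate 3 (1.32, adjusted p = 0.412), and the difference of the 2 changes was 4.65 (edgeR adjusted p = 0.9998; DESeq2 adjusted p = 0.00296).

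The authors' deposited table of regularized log (rlog) values, in log2 units and centred on each gene's mean, gave a view of replicate 2 at 1 h that the count table does not. It holds 50 genes selected by the authors for high variance, 49 of them in the count table, and there no column of replicate 2 at 1 h equalled a column of replicate 1. The change from 1 h to 4 h was positive in all 3 replicates for 32 genes, negative in all 3 for 10 and mixed for 8. The 3 libraries of each hour did not overlap in 31 genes, of which 22 were higher and 9 lower at 4 h. The genes were picked on all samples of the series, so these shares do not extend to other genes.

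Replicate 3 was outside the range of the other replicates at 1 h in 43 of these 50 genes. It was the lowest of the 3 replicates at 1 h in 33 genes and the highest in 10. Any 1 of 3 equal libraries would also lie outside the others in most genes, and the same count for replicates 1 and 2 is not given here. The median absolute difference at 1 h was 0.17 between replicates 1 and 2, 0.58 between replicates 1 and 3 and 0.37 between replicates 2 and 3. Replicate 2 was nearer to replicate 1 than to replicate 3 in 28 of the 50 genes. In the change over time the order was another: replicates 2 and 3 differed by a median of 0.26, replicates 1 and 2 by 0.47 and replicates 1 and 3 by 0.49. For RSUB_01551 the rlog changes in the authors' deposited table were 4.73, 3.04 and 3.29 in replicates 1, 2 and 3. For RSUB_07490 they were 3.60, 3.74 and 4.50, and for RSUB_11916 they were 2.02, 2.05 and 2.42. In each of these 3 genes replicate 2 was higher at 4 h, as the other replicates were.

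**Figure D4:**
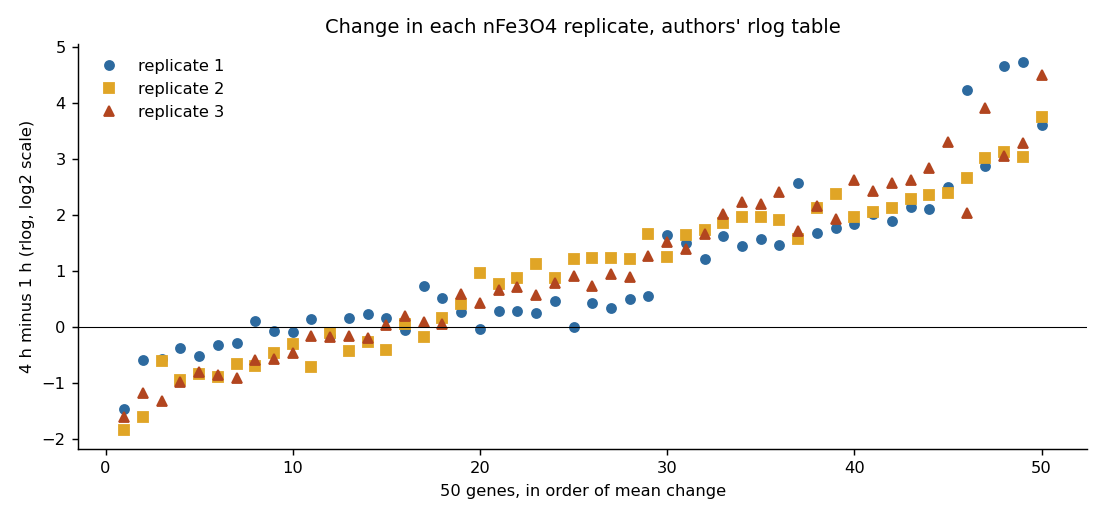
Change from 1 h to 4 h in each nFe3O4 replicate for the 50 genes of the authors' rlog table, on the log2 scale, with genes ordered by their mean change. All 3 replicates lie above 0 for 32 genes and below 0 for 10, and replicate 2, which the count table lacks at 1 h, follows the other replicates along the order.

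The other cultures also changed over the same hours, and their changes share no library with that in nFe3O4. The tests do share their estimate of spread per gene, and abundant genes were called more often. The shares over all genes, here and in the comparisons below, are thus a rough background. In labelled control cultures 2028 genes changed between 1 h and 4 h (17.1%; 1009 rose, 8.52%, and 1019 fell, 8.61%), and in labelled nZVI cultures 2110 did (17.8%; 980 rose, 8.28%, and 1130 fell, 9.54%). Of the 1009 genes that rose in labelled control cultures, 222 rose in nFe3O4 (22.0%, against 5.33% of all genes) and 1 fell, and their median log2 change in nFe3O4 was 0.30. Those 222 genes are 35.2% of the genes that rose in nFe3O4. Of the 1019 that fell in labelled control cultures, 460 fell in nFe3O4 (45.1%, against 7.19% of all genes) and 6 rose, with a median of -0.43, and they are 54.1% of the genes that fell in nFe3O4.

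Among the changes in labelled nZVI cultures the shares for rises and falls were close to each other. Of their 980 rises, 399 rose in nFe3O4 (40.7%) and 7 fell, with a median of 0.47, and the 399 are 63.2% of the rises in nFe3O4. Of their 1130 falls, 485 fell in nFe3O4 (42.9%) and 4 rose, with a median of -0.41, and the 485 are 57.0% of the falls in nFe3O4. Across the 6385 genes whose mean log2 CPM was 3 or more, the Pearson r of the nFe3O4 change was 0.58 with the labelled control change and 0.75 with the labelled nZVI change. Over all 11841 genes tested it was 0.49 with the labelled control change and 0.59 with the labelled nZVI change. These r values are across genes within a shared experiment and carry no test of which condition is closer.

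The genes with the largest changes differed in how they behaved in the other cultures. The 37 genes that rose at least 4-fold in nFe3O4 had a median log2 change of 2.53 there, 2.14 in labelled nZVI and 0.56 in labelled control cultures. Of these 37, 28 rose past the threshold in labelled nZVI (8.28% of all genes did) and 9 in labelled control cultures (8.52% of all genes did), and 36 and 32 had a positive change. The 13 genes that fell at least 4-fold had medians of -2.37 in nFe3O4, -1.56 in labelled nZVI and -1.63 in labelled control cultures. Of these 13, 11 fell past the threshold in labelled nZVI (9.54% of all genes did) and 8 in labelled control cultures (8.61% of all genes did). All 37 rises were at least 2-fold within replicate 1 and 36 were within replicate 3, and all 13 falls were at least 2-fold within each. Of the 199 genes that rose at least 2-fold, 150 also rose in labelled nZVI (8.28% of all genes did) and 72 in labelled control cultures (8.52%). Their medians were 1.36 in nFe3O4, 1.14 in labelled nZVI and 0.46 in labelled control cultures. Of the 242 that fell at least 2-fold, 144 also fell in labelled nZVI (9.54% of all genes did) and 146 in labelled control cultures (8.61%). Their medians were -1.24 in nFe3O4, -0.86 in labelled nZVI and -0.81 in labelled control cultures. These genes were selected for their size in nFe3O4, which by itself makes their medians there larger than elsewhere.

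**Figure D5:**
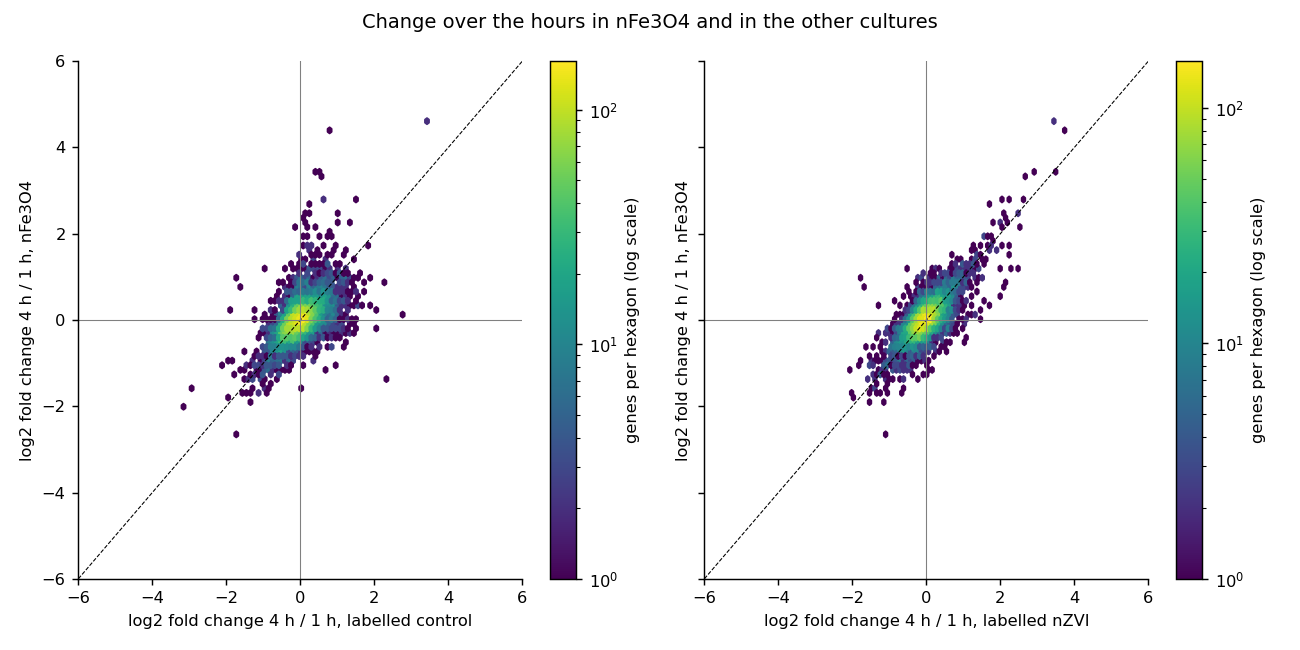
Log2 fold change of 4 h over 1 h in nFe3O4 cultures (vertical) against that in labelled control cultures (left) and labelled nZVI cultures (right) for 6385 genes whose mean log2 CPM was 3 or more, with colour giving genes per hexagon on a log scale and a dashed line of equal change. On the left a group of genes with rises above 2 in nFe3O4 lies near 0 on the horizontal axis, and on the right the largest rises lie close to the dashed line.

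The nFe3O4 rises were also set against the difference between the other 2 cultures at 1 h, which uses none of the nFe3O4 libraries. Labelled nZVI and labelled control cultures differed at 1 h in 4892 genes (41.3%), of which 2505 were higher (21.2%) and 2387 lower (20.2%) in labelled nZVI. Of the 2387 that were lower in labelled nZVI cultures at 1 h, 368 rose in nFe3O4 between 1 h and 4 h (15.4%, against 5.33% of all genes) and 150 fell (6.28%, against 7.19%), with a median log2 change of 0.10 against 0.02 over all genes. The 368 genes are 58.3% of all rises in nFe3O4. Of the 2505 that were higher in labelled nZVI cultures at 1 h, 67 rose in nFe3O4 (2.67%) and 205 fell (8.18%), with a median of -0.02. Of the 6949 not called at 1 h, 196 rose (2.82%) and 496 fell (7.14%). The share that rose was thus above the background only among genes lower in labelled nZVI than in labelled control cultures at 1 h, and the share that fell was near the background in all 3 sets.

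The change over time differed between nFe3O4 and labelled control cultures in 233 genes (1.97%; edgeR's quasi-likelihood test, adjusted p below 0.05), 141 with a more positive and 92 with a more negative change in nFe3O4. Without TMM factors the split was 109 and 124. At least a 2-fold difference was seen in 127 of the 233. Without replicate 3 at 1 h only 18 genes passed, and without both libraries numbered 3 only 14 did. Leaving out other single libraries also moved the count by over 1.5 times: it was 125 without nFe3O4 replicate 3 at 4 h, 143 and 100 without labelled control replicates 1 and 3 at 1 h, and 78 without labelled control replicate 1 at 4 h. Among called genes whose mean log2 CPM was 3 or more, the directions of the 2 leading genes on each side held in every setting tried. These genes were picked for large differences on the same libraries, which makes a kept direction likely.

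RSUB_07490 had 36.7 and 13.7 CPM at 1 h in nFe3O4 (replicates 1 and 3) and 510, 599 and 454 CPM at 4 h (replicates 1 to 3). In labelled control cultures it had 257, 226 and 414 CPM at 1 h and 456, 553 and 591 CPM at 4 h, and in labelled nZVI cultures 18.8, 28.6 and 64.4 CPM and then 539, 447 and 501 CPM. At 4 h the 3 conditions overlapped, and at 1 h both nFe3O4 libraries lay far below every labelled control library. The log2 change was 4.37 (SE 0.51, edgeR adjusted p = 5.70e-05) in nFe3O4 and 0.84 (SE 0.38, adjusted p = 0.143) in labelled control cultures. The difference of the changes was 3.54 (SE 0.59, edgeR adjusted p = 0.00823), and without replicate 3 at 1 h it was 2.99 (adjusted p = 0.0780).

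RSUB_11916 showed the same order of levels. It had 4.24 and 1.63 CPM at 1 h in nFe3O4 and 31.4, 35.1 and 29.3 CPM at 4 h, against 33.1, 28.4 and 36.1 CPM and then 45.5, 42.6 and 45.0 CPM in labelled control cultures. In labelled nZVI cultures it had 0.908, 2.11 and 4.13 CPM at 1 h and 29.5, 27.3 and 25.8 CPM at 4 h. It was thus low at 1 h with either particle label, and at 4 h its nFe3O4 level overlapped with the 1 h level of labelled control cultures. The difference of its change from that in labelled control cultures was 3.01 (SE 0.52, edgeR adjusted p = 0.00966), and without replicate 3 at 1 h it was 2.46 (adjusted p = 0.0811).

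In the opposite direction the leading genes, among those called with a mean log2 CPM of 3 or more, were RSUB_03387 and RSUB_09829. RSUB_03387 had 16.9 and 17.99 CPM at 1 h in nFe3O4 and 9.53, 5.58 and 4.53 CPM at 4 h. In labelled control cultures it had 2, 6 and 10 counts at 1 h (0.0774, 0.188 and 0.334 CPM) and 54, 10 and 37 counts at 4 h (1.51, 0.389 and 1.05 CPM). Every nFe3O4 library was above every labelled control library, and the labelled control values at 1 h rest on few counts, 1 of them under 3. The difference of the changes was -3.70 (SE 0.90, edgeR adjusted p = 0.0455), while neither the nFe3O4 change of -1.41 (SE 0.48, adjusted p = 0.0676) nor the labelled control change of 2.29 (SE 0.76, adjusted p = 0.0506) passed alone. The call was lost on leaving out any 1 of 9 of the 11 libraries compared. RSUB_09829 had 13.9 and 16.4 CPM at 1 h and 8.80, 6.64 and 5.95 CPM at 4 h in nFe3O4, against 1.43, 2.79 and 0.970 and then 3.10, 3.65 and 3.32 CPM in labelled control cultures. It fell in nFe3O4 (-1.08, SE 0.32, edgeR adjusted p = 0.0360), and the difference of the changes was -2.03 (SE 0.46, adjusted p = 0.0332). That call was also lost on leaving out any 1 of 9 of the 11 libraries, among them replicate 3 at 1 h (-1.90). In labelled nZVI cultures RSUB_03387 fell by a log2 change of -1.43 (SE 0.44, edgeR adjusted p = 0.0320) and RSUB_09829 by -1.07 (SE 0.29, adjusted p = 0.0176). The nFe3O4 changes differed from these by only 0.03 (SE 0.65) and -0.02 (SE 0.43), each at an edgeR adjusted p of 0.996. A downward change in these 2 genes was thus not particular to nFe3O4.

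Against labelled nZVI cultures the change over time differed in 46 genes (0.388%), 11 more positive and 35 more negative in nFe3O4, with 1177 genes at an unadjusted p below 0.05. This comparison shares its nFe3O4 libraries with the one above. Without replicate 3 at 1 h edgeR called 0 genes, with 800 at an unadjusted p below 0.05, and without both libraries numbered 3 it called 1. Without labelled nZVI replicate 2 at 4 h it also called 0, with 899 at an unadjusted p below 0.05. The count was 17 without nFe3O4 replicate 1 at 1 h, 19 and 17 without nFe3O4 replicates 1 and 3 at 4 h, 21 and 20 without labelled nZVI replicates 1 and 2 at 1 h, and 12 without labelled nZVI replicate 1 at 4 h. Among called genes whose mean log2 CPM was 3 or more, RSUB_08848, the fall described above, led the negative side. Its difference was -1.59 (SE 0.27, edgeR adjusted p = 0.0199). The call was lost on leaving out any 1 of 3 of the 11 libraries compared, among them replicate 3 at 1 h (-1.31). In labelled nZVI cultures RSUB_08848 fell from 12.2, 12.9 and 9.96 to 5.12, 5.38 and 6.25 CPM. In labelled control cultures it fell from 9.67, 12.7 and 9.06 to 3.49, 2.60 and 3.61 CPM. Both nFe3O4 libraries at 1 h were above all libraries of the other conditions, and at 4 h the nFe3O4 libraries overlapped with the labelled control libraries and lay below every labelled nZVI library.

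Under the same limit on mean level, the other leading genes against labelled nZVI cultures were not called in nFe3O4 cultures themselves. In labelled control cultures RSUB_02091 and RSUB_01781 fell as well (log2 change -1.74, edgeR adjusted p = 0.00444 and -1.60, adjusted p = 0.00116). Their nFe3O4 changes also differed from these (2.71, edgeR adjusted p = 0.0188 and 2.33, adjusted p = 0.0118). RSUB_00577 had a log2 change of 0.0003 (SE 0.20) in labelled control cultures. RSUB_02091 had 30.4 and 32.2 CPM at 1 h and 26.9, 99.4 and 58.1 CPM at 4 h, so the hours overlapped and the 4 h libraries spread widely. In labelled nZVI cultures it fell from 119, 137 and 158 to 47.6, 42.9 and 27.3 CPM, and the difference of the changes was 2.78 (SE 0.55, edgeR adjusted p = 0.0378). RSUB_01781 had 10.1 and 4.86 CPM at 1 h and 8.10, 14.5 and 14.8 CPM at 4 h, and in labelled nZVI cultures it fell from 22.5, 24.2 and 30.5 to 9.06, 8.60 and 7.12 CPM (difference 2.37, SE 0.42, edgeR adjusted p = 0.0252). Its change was -0.32 within replicate 1 and 1.60 within replicate 3 (edgeR adjusted p = 0.721 and 0.0205), so its direction in nFe3O4 was not the same in the replicates. RSUB_00577 had 29.1 and 37.7 CPM at 1 h and 19.7, 24.6 and 27.2 CPM at 4 h, and rose in labelled nZVI cultures from 17.3, 15.4 and 11 to 34.6, 32.1 and 21.7 CPM (difference -1.51, SE 0.30, edgeR adjusted p = 0.0378). These 3 calls were lost on leaving out many of the libraries in turn. Leaving out any 1 of 10 of the 11 libraries compared ended the call of RSUB_02091, any 1 of 10 that of RSUB_00577 and any 1 of 5 that of RSUB_01781.

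For the 4 genes that led the nFe3O4 change, the authors' deposited table of 4 h against 1 h over all conditions gives log2 fold changes of 3.81 for RSUB_01551, 3.83 for RSUB_01552, -1.97 for RSUB_08848 and -2.03 for RSUB_04889. These have the sign found in nFe3O4 alone, and they include the nFe3O4 samples.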

How the data were processed

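The authors deposited whole read counts per gene and lane, not normalized, per the file headers. Low counts were mostly even (63.5%). The submitters' processing notes name HISAT2, Trimmomatic, bcl2fastq, bedtools 2.27.1, SAMtools, DESeq and DESeq2 but give no roles. The sources used here name no genome build, annotation or counting options. The authors also deposited rlog values (log2 scale) of 50 genes, whose 4 lane columns per replicate were averaged here. The authors' deposited table of 4 h against 1 h over all conditions holds, per the file headers, DESeq2 output: a mean normalized count (a signal), a log2 fold change, other values (its standard error), a Wald score, a p-value and an adjusted p-value. The authors' remaining tables were not used here.

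Lane counts were summed: 68 lane columns made 17 libraries of 26322767 to 43364641 counts. Over genes with 20 or more counts, lanes of an nFe3O4 library differed by a chi-square of 2.79 to 3.57 per degree of freedom. Tests used edgeR 4.0.16 (limma 3.58.1, R 4.3.3), quasi-likelihood, TMM scaling and 6 group means over all 17 libraries, with genes kept by the low-count filter by group. Libraries of a group varied with a common coefficient of variation of 0.190. For tests within replicates each nFe3O4 library had its own mean, so the spread came from the other groups. Standard errors come from the test statistic, and p-values were adjusted by Benjamini-Hochberg over all genes tested. Alternatives were DESeq2 1.42.0, other scalings, no filter, lane 1 alone, libraries left out, the nFe3O4 libraries alone, replicate blocks and an adjusted p below 0.01. The edgeR fit was tested on simulated data.

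For each comparison the text names the 2 largest rises and 2 largest falls that passed the threshold and had a mean log2 CPM of 3 or more (and, for 4 h against 1 h, no overlap between the hours); fewer are named where fewer passed. The comparison and the rules were chosen with earlier results of these data known. Without an annotation, gene groups could not be described here.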

Additional observations from a re-analysis of the deposited data

Results flagged for a closer look

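The change over time differed between nFe3O4 and labelled control cultures in 233 genes by edgeR's quasi-likelihood test of the difference itself (adjusted p below 0.05). The genes named for it had differences of 3.54 (RSUB_07490), 3.01 (RSUB_11916), -3.70 (RSUB_03387) and -2.03 (RSUB_09829) on the log2 scale, nFe3O4 minus labelled control. The test of the difference from labelled nZVI cultures called 46 genes. The genes named for it had differences of 2.78 (RSUB_02091), 2.37 (RSUB_01781), -1.59 (RSUB_08848) and -1.51 (RSUB_00577), nFe3O4 minus labelled nZVI. The 2 tests share the nFe3O4 libraries, among them replicate 3 at 1 h, without which edgeR called 18 and 0 genes (800 at an unadjusted p below 0.05 in the latter), and leaving out labelled nZVI replicate 2 at 4 h also gave 0 calls (899 at an unadjusted p below 0.05).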

How the results depend on the processing

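The main limit is 2 libraries at 1 h. The count of genes changed in nFe3O4 (1482) was 1425 with RLE factors, 1872 without scaling factors, 1471 without a filter and 1710 with DESeq2, but 781 from lane 1 alone, 578 from the nFe3O4 libraries alone, 717 at an adjusted p below 0.01 and 480 without both libraries numbered 3, and it ran from 596 to 1380 with 1 library left out. The 233 differences from labelled control became 460 with DESeq2, 114 from lane 1 alone and 14 without both libraries numbered 3 (chosen after seeing the data), with a range of 18 to 231 with 1 library left out. The 46 differences from labelled nZVI became 106, 14 and 1 in the same settings, with a range of 0 to 61. For the difference between replicates 3 and 1, edgeR called 0 genes with RLE factors, without scaling factors and without a filter (162 to 185 at an unadjusted p below 0.05), DESeq2 called 1 and lane 1 alone gave 2, RSUB_03641 and RSUB_03642. The cause of these shifts was not tested. Among the named genes, 138 of 208 values kept their call, 70 lost it and 0 changed sign. The named genes were picked for large changes on the same libraries, which makes a kept sign likely. Equal replicate numbers did not pair the samples by the rule used: same-numbered libraries of the 2 hours deviated together with r of 0.59 and 0.79 in nFe3O4, but over 0.1 in only 5 of 8 pairs of the series. The deviations of the 2 nFe3O4 libraries at 1 h are exact opposites, so these 2 values are not separate. Replicate 1 at 1 h also deviated together with replicate 2 at 4 h (r of 0.61). With a replicate block by culture the 3 counts were 2164, 695 and 123, and with a replicate block by number 1377, 163 and 27.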
